A study of Mus musculus with 6 samples.

Results

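The platelet-derived growth factor (PDGF) family was followed through its 4 ligand genes, Pdgfa, Pdgfb, Pdgfc and Pdgfd, and its 2 receptor genes, Pdgfra and Pdgfrb. These 6 genes were picked by name and Ensembl identifier from the 55536 genes listed in each library. The cells were SVEC4-10, an immortalised mouse line labelled as endothelial, and both groups come from that single line. The nattokinase group (3 libraries) had been exposed for 24 hours to nattokinase, a fibrin-cleaving protease from fermented soybeans, at a dose not given in the sources used here, and the control group (3 libraries) was untreated. Both groups were grown in the same serum-containing medium. The comparison asks how transcript levels differ after the exposure. Levels are FPKM, read counts scaled by the exon length of each gene and by the reads assigned to genes in the library. The exon length merges all annotated exons of a gene and can exceed that of the transcripts in use. Comparisons of level between genes are therefore approximate.

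PDGF ligands are secreted dimers that activate receptor tyrosine kinases on neighbouring cells. The A and B chains are cut inside the cell by furin-like convertases, whereas the C and D chains leave the cell in a latent form that extracellular proteases such as tissue plasminogen activator (for C) and urokinase (for D) cut. The alpha receptor binds A, B and C chains and the beta receptor binds B and D chains. In the vessel wall, endothelial cells are known as a source of PDGF-B, while pericytes and smooth muscle cells carry the beta receptor and fibroblasts carry both receptors.

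Between 15044778 and 18341370 reads were assigned to genes per library. Protein-coding genes took 98.3% to 98.4% of the reads in the nattokinase libraries and 95.4% to 96.7% in the control libraries, so this share moved with every group difference given here. No label says whether the replicates were grown as separate cultures, and the p-values cover only the spread seen between these libraries, which may be technical. In bulk RNA, fewer cells of a type and less RNA per cell cannot be told apart.

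The label of the cells was set against marker genes. Of 12 endothelial markers, 0 reached 1 FPKM in any library. The adhesion gene Pecam1 (CD31) had 0 to 3 reads in a library and the junction gene Cdh5 (VE-cadherin) at most 1. Erg, Tie1, Cldn5 and Emcn had 0 reads in every library. The summed level of the 12 genes was 0.590 to 0.704 FPKM with nattokinase and 0.405 to 0.747 FPKM in controls. Outside this list, 2 receptor genes for vascular endothelial growth factors (VEGF) lay above 1 FPKM. Flt4 averaged 10.7 FPKM with nattokinase and 11.2 FPKM in controls, and Flt1 averaged 4.84 and 2.60 FPKM. Kdr, a VEGF receptor gene among the 12, reached at most 0.133 FPKM. Of 8 fibroblast markers, 4 reached 1 FPKM, namely Col1a1, Col1a2, Col3a1 and Dcn. The summed level was 1822 to 1891 FPKM in the nattokinase libraries and 2044 to 2190 FPKM in the control libraries. Most of it was collagen, with Col1a1 at a mean of 1236 FPKM with nattokinase and 1403 FPKM in controls, and Col1a2 at 511 and 524 FPKM. Lum, Fap and Fbln1 reached at most 0.335 FPKM in any library, and Thy1 had 0 reads in all. Of 10 mural cell markers, 4 reached 1 FPKM, namely Acta2, Mcam, Tagln and Notch3, and the defining pericyte genes Rgs5, Cspg4, Abcc9 and Kcnj8 had at most 3 reads per library. The summed mural marker level was 918 to 942 FPKM with nattokinase and 451 to 494 FPKM in controls, almost all of it Acta2, the smooth muscle actin gene. Of 8 leukocyte and platelet markers, 2 reached 1 FPKM (Cd14 and Cd68), with a summed level of 8.86 to 9.35 FPKM with nattokinase and 6.87 to 8.43 FPKM in controls, and Ptprc, Itgam and Gp9 had 0 reads throughout. Acta2 averaged 907 ± 14 FPKM with nattokinase and 459 ± 23 FPKM in controls (SD, n = 3 each). With the test described next, Acta2, Tagln and Mcam rose among the 4 mural markers tested (62.4% of the exon length of Tagln overlaps an antisense gene). Notch3, the remaining mural marker tested, averaged 1.24 ± 0.093 FPKM with nattokinase and 1.55 ± 0.072 FPKM in controls and was not called. Col3a1 fell among the 4 fibroblast markers and Cd68 rose among the 2 leukocyte markers. Of all genes tested, 5.61% were called higher and 3.24% lower. The part of these marker shifts in the PDGF results was not tested.

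**Figure D1:**
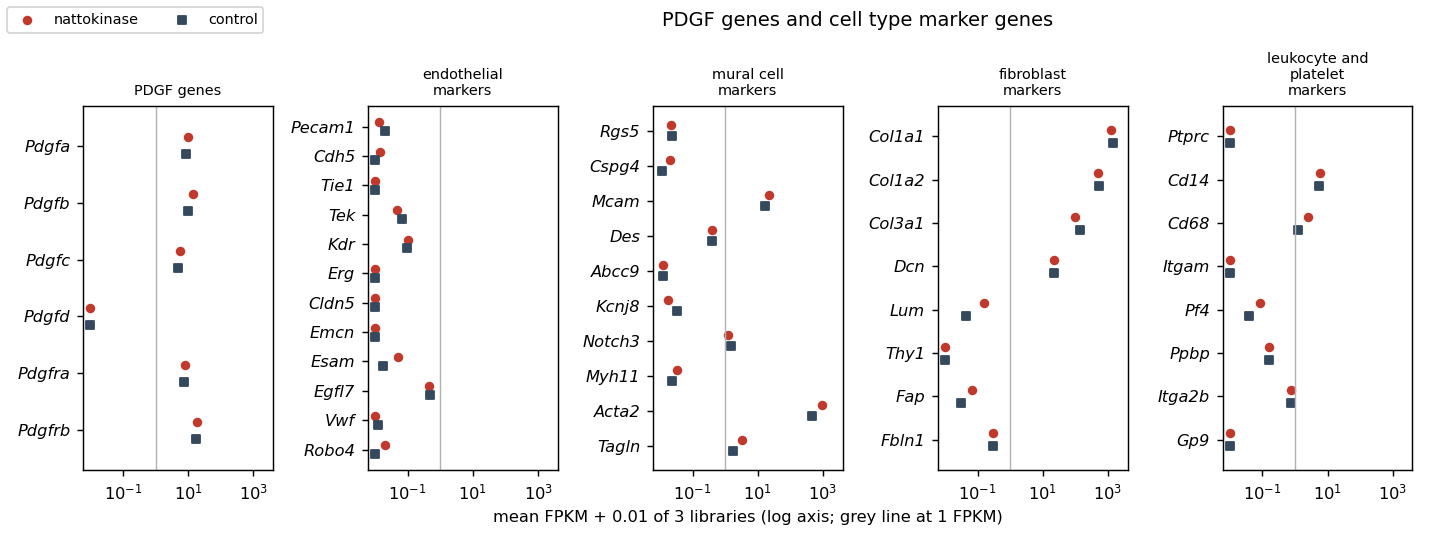
Mean FPKM plus 0.01 on a log axis for the 6 PDGF genes and for marker genes of endothelial cells, mural cells, fibroblasts, and leukocytes and platelets; circles are the nattokinase group and squares the control group, each the mean of 3 libraries. Of the 6 PDGF genes, 5 lie above 1 FPKM together with 4 fibroblast, 4 mural and 2 leukocyte markers, whereas 0 of the 12 endothelial markers do.

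Of the 6 PDGF genes, 5 were transcribed well above the filter of 1 FPKM in at least 3 libraries, and Pdgfd had no reads. Pdgfb was 1.41-fold higher in nattokinase-treated cells, and Pdgfa was 1.19-fold higher with a call that rested on the processing. Pdgfrb and Pdgfra were 1.14-fold and 1.12-fold higher and did not pass the test. Pdgfc was 1.08-fold higher, with overlapping groups. Each library listed all 5 genes at 4.90 FPKM or more, so none of them passed the filter through a single group. With limma, on log2(FPKM + 1) and with Benjamini-Hochberg adjustment over 10913 genes, 2 of the 5 tested members were called higher and 0 lower at an adjusted p of 0.05. Over all genes tested, 8.85% were called, 5.61% higher and 3.24% lower. The median log2 fold change was 0.18 over the 5 members and 0.01 over all genes tested. In 4 of the 5 members the nattokinase libraries all lay above the controls, which was so for 17.4% of all genes tested, while groups without overlap in either direction made up 28.8%.

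**Figure D2:**
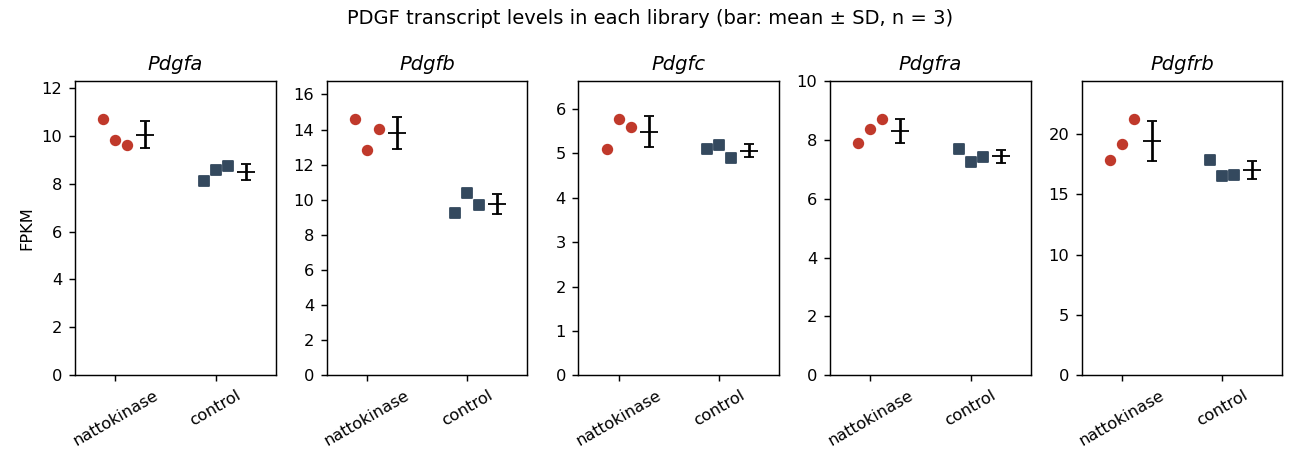
FPKM (vertical axis, from 0) of the 5 PDGF genes with reads, in each nattokinase library (circles) and each control library (squares), with the mean ± SD of each group beside the points. Pdgfb shows the widest gap, with nattokinase libraries at 12.8 to 14.6 and control libraries at 9.22 to 10.4, while the groups overlap for Pdgfc.

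Pdgfb, the ligand that activates both receptors, lies on chromosome 15 (79995874 to 80014977, minus strand, GRCm38). It had 14.6, 12.8 and 14.0 FPKM in the nattokinase libraries, against 9.22, 10.4 and 9.73 FPKM in the control libraries. The lowest nattokinase library stood above the highest control library, and these values rest on 936 to 1094 reads with nattokinase and 622 to 668 reads in controls. The group means were 13.8 ± 0.89 FPKM with nattokinase and 9.77 ± 0.57 FPKM in controls (SD, n = 3 each). Pdgfb rose by a log2 fold change of 0.46 (SE 0.063, limma adjusted p = 0.0018), with a 95% interval of 0.32 to 0.60. The adjusted p stayed between 2.7e-05 and 0.033 under the 15 other ways of processing. Scaling each library by its protein-coding sum gave a log2 fold change of 0.43. No other annotated gene shares exon bases with Pdgfb.

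Pdgfa, whose product activates the alpha receptor, lies on chromosome 5 (138976014 to 138997370, minus strand). It had 10.7, 9.82 and 9.63 FPKM in the nattokinase libraries, against 8.11, 8.59 and 8.73 FPKM in the control libraries. The groups did not overlap, and nattokinase replicate 1 was the highest library. The means were 10.1 ± 0.56 FPKM with nattokinase and 8.47 ± 0.32 FPKM in controls (SD, n = 3 each), from 537 to 601 reads with nattokinase and 403 to 449 reads in controls. Pdgfa had a log2 fold change of 0.22 (SE 0.058, 95% interval 0.09 to 0.35, limma adjusted p = 0.043). Leaving out any 1 of the 6 libraries took the call away, with adjusted p between 0.071 and 0.14 and the highest value without nattokinase replicate 1. Scaling by protein-coding sums also took it away (log2 fold change 0.19, adjusted p = 0.073).

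Of the exon length of Pdgfa, 26.1% overlaps exons of 6330403L08Rik, an antisense RNA gene on the plus strand (chromosome 5, 138995056 to 139000577). Strand use in the counting is not stated, so reads in this stretch cannot be told apart. The antisense gene was listed at 2.83, 3.04 and 3.03 FPKM with nattokinase, against 2.47, 2.09 and 2.29 FPKM in controls. It was called higher as well, with a log2 fold change of 0.27 (limma adjusted p = 0.042).

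The upstream bases of Pdgfa are shown because the antisense gene starts within them and runs away from the Pdgfa start site that follows them. Both genes were called higher, but the Pdgfa call held in only 4 of 16 settings. The call of the antisense gene was not followed across these settings. The stretch (GRCm38.p6, chr5:138995008-138995194, minus strand) holds the first 187 of the 250 bases before the start site of the RefSeq promoter window. It stops short of that start site, and its last 30 bases fall in the first exon of another annotated Pdgfa transcript. Capitals mark the GC box, GGGCGG on either strand, the textbook binding motif of SP1 and related factors.
Pdgfa: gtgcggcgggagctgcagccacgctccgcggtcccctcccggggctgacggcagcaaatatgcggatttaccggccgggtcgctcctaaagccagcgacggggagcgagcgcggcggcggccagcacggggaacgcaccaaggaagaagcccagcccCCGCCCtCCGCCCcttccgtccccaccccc
The 2 GC boxes lie close together, with 1 base between them, and both fall within the last 30 bases, inside that annotated exon. They end 88 and 81 bases before the start site of the window, which lies beyond the bases printed. A GC box was present in 22.2% of all 32851 RefSeq promoter windows cut to the same 187 bases. A second RefSeq window of Pdgfa held 1 GC box. The 250 bases upstream of the start site of the first window, 187 of them shown here, were 72.4% G and C, whereas the median promoter held 52.4%. The EGR1 motif GCGNGGGCG was searched on both strands and not matched in these 250 bases (4.7% of all promoters match), nor was the TATA box TATAAA (12.4% match). A match is a description of letters, not a bound site.

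Pdgfc, a latent ligand of the alpha receptor, lies on chromosome 3 (81036416 to 81214040, plus strand). It had 5.09, 5.76 and 5.60 FPKM in the nattokinase libraries, against 5.10, 5.19 and 4.90 FPKM in the control libraries. Nattokinase replicate 1 lay inside the control range, so the groups overlapped. The log2 fold change was 0.10 (SE 0.061, limma adjusted p = 0.40) with a 95% interval of -0.04 to 0.23. The values rest on 467 to 523 reads with nattokinase and 397 to 421 reads in controls.

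The promoter of Pdgfc is shown because it holds a CArG box, the motif of serum response factor (SRF), whose own gene was called higher in these cells and stands among the early genes described further on. The 250 bases end just before the annotated start of the gene (RefSeq, GRCm38.p6, chr3:81036166-81036415, plus strand), and capitals mark the CArG box.
Pdgfc: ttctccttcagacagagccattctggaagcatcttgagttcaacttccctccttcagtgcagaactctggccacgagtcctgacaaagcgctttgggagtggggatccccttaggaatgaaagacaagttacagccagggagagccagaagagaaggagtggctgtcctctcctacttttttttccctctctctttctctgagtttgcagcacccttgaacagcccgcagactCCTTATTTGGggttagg
The match ends 8 bases before the start site. Pdgfc itself was not called, and any link between SRF and Pdgfc was not tested. A CArG box was found in 1.47% of the 32851 promoter windows of 250 bases, and in none of the other PDGF windows searched, which were those of Pdgfa, Pdgfd and Pdgfra. The GC content of the Pdgfc window was 50.8%, that of Pdgfd 53.6% and that of Pdgfra 54.4%, each with 3 or 4 CG dinucleotides where the Pdgfa window had 28.

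Pdgfd, the latent ligand of the beta receptor, lies on chromosome 9 (6168584 to 6378850, plus strand). It had 0 reads in each nattokinase library and 0 reads in each control library. A count of 0 allows up to 3 reads, which corresponds to 0.0519 to 0.0543 FPKM with nattokinase and 0.0577 to 0.0632 FPKM in controls, for counting error only. Its transcripts were not detected at this depth, and no fold change is given.

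Pdgfrb, the beta receptor, lies on chromosome 18 (61045150 to 61085061, plus strand) and was the most abundant member per length. It had 17.9, 19.2 and 21.2 FPKM in the nattokinase libraries, against 17.8, 16.5 and 16.6 FPKM in the control libraries. The lowest nattokinase library barely cleared the highest control library. The means were 19.4 ± 1.67 FPKM with nattokinase and 17.0 ± 0.73 FPKM in controls (SD, n = 3 each), with a log2 fold change of 0.18 (SE 0.064, 95% interval 0.04 to 0.32, limma adjusted p = 0.12). Testing the whole reads recovered from the FPKM steps with limma-voom gave 0.19 with an adjusted p of 0.048, the only setting out of 16 in which Pdgfrb passed.

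Pdgfra, the alpha receptor, lies on chromosome 5 (75152292 to 75198215, plus strand). It had 7.88, 8.37 and 8.70 FPKM in the nattokinase libraries, against 7.67, 7.23 and 7.43 FPKM in the control libraries. The groups did not overlap, with a narrow gap. The means were 8.32 ± 0.41 FPKM with nattokinase and 7.45 ± 0.22 FPKM in controls (SD, n = 3 each), with a log2 fold change of 0.14 (SE 0.056, 95% interval 0.02 to 0.27, limma adjusted p = 0.17). Pdgfra did not pass in any of the 16 settings, and its adjusted p reached down to 0.081. Antisense and other genes overlap at most 4.5% of its exon length each, and none of them had more than 2 reads in a library.

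**Figure D3:**
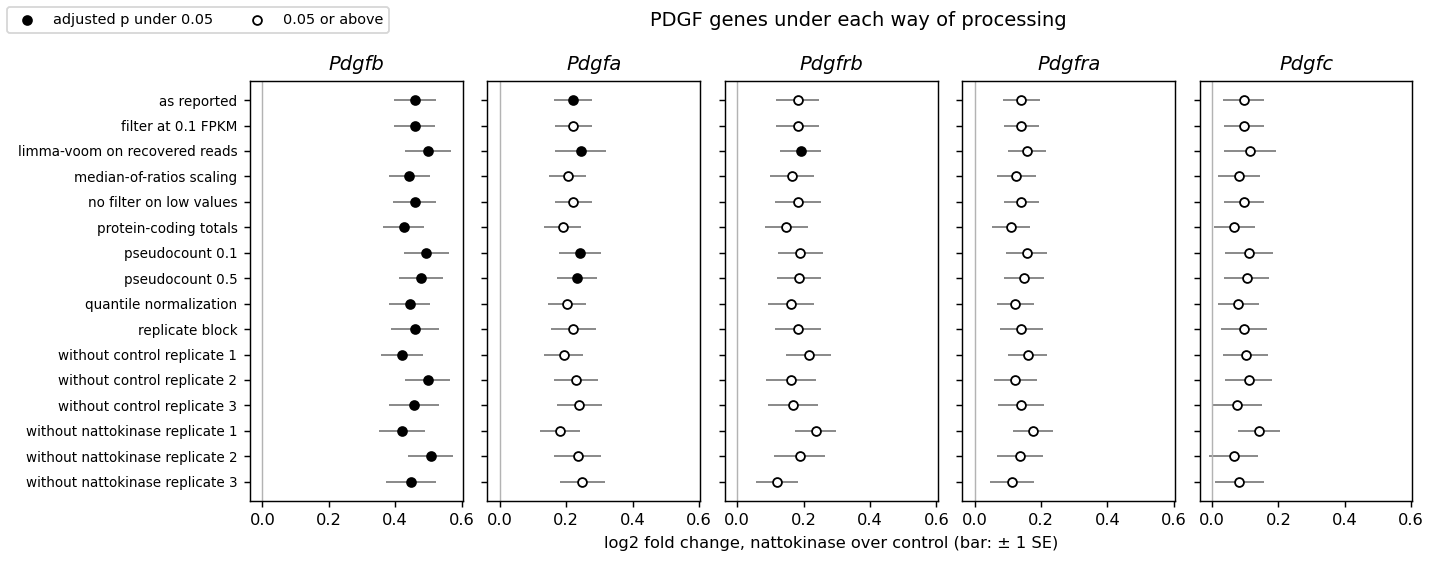
Log2 fold change, nattokinase over control, of the 5 PDGF genes with reads under 16 ways of processing (rows), with bars of 1 SE and filled points where the adjusted p is under 0.05. Pdgfb is filled in 16 of 16 rows, Pdgfa in 4, Pdgfrb in 1, and Pdgfra and Pdgfc in 0, while every estimate lies above 0.

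The order of the levels per length was the same in both groups. Pdgfrb came first, followed by Pdgfb, Pdgfa, Pdgfra and Pdgfc, and Pdgfd was at 0. No 2 neighbours in this order had overlapping ranges within either group, although in controls Pdgfa at 8.11 to 8.73 FPKM and Pdgfra at 7.23 to 7.67 FPKM lay close together. This order also depends on the annotated exon lengths. Among 14989 genes with reads in all 6 libraries, 80.7% had a lower mean level than Pdgfrb, 71.9% than Pdgfb and 53.5% than Pdgfc.

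The ratio of the receptors overlapped between the groups, whereas the shares of Pdgfb, Pdgfa and Pdgfc among the ligands did not. These shares are parts of the same sum, so they are tied to each other. The ratios and shares were described without a test, and their size depends on the annotated exon lengths. The level of Pdgfrb over that of Pdgfra was 2.27, 2.29 and 2.44 in the nattokinase libraries, against 2.32, 2.28 and 2.24 in the control libraries, and the groups overlapped. The level of Pdgfb over that of Pdgfa was 1.36, 1.31 and 1.46 with nattokinase, against 1.14, 1.21 and 1.12 in controls, and these groups did not overlap. Pdgfb made up 47.0% ± 1.6 of the summed ligand FPKM with nattokinase and 41.9% ± 0.94 in controls (SD, n = 3 each). Pdgfa made up 34.2% ± 1.2 with nattokinase and 36.4% ± 0.91 in controls, and Pdgfc made up 18.7% ± 1.8 with nattokinase and 21.7% ± 0.92 in controls. The summed ligand level was 28.4 to 30.4 FPKM with nattokinase and 22.4 to 24.1 FPKM in controls, and the summed receptor level was 25.8 to 29.9 FPKM with nattokinase and 23.7 to 25.5 FPKM in controls.

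The genes most alike in pattern were those with the smallest root mean square (RMS) difference in centred log2(FPKM + 1) over the 6 libraries, among 6943 protein-coding genes with a mean of at least 5 FPKM. For Pdgfb these were Dusp4, a phosphatase of MAP kinases, at 0.035, Pcolce2 at 0.043 and Mcam, an adhesion molecule of mural and endothelial cells, at 0.047, where the median gene differed by 0.24. Mcam averaged 21.5 ± 0.56 FPKM with nattokinase and 16.1 ± 0.72 FPKM in controls (SD, n = 3 each). For Pdgfa they were Gprc5a at 0.021, the membrane linker gene Msn at 0.025 and Nudcd2 at 0.025. For Pdgfrb they were Aebp1, Samd4b and Tead3, at 0.028 to 0.034. For Pdgfra they were Dab2ip, the laminin chain gene Lamc1 and the kinase gene Src, at 0.012 to 0.016, and for Pdgfc Ttc19, Zfp868 and Abr, at 0.014. The median gene differed from Pdgfc by 0.10.

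Among the proteases that cut PDGF chains, urokinase alone of 6 tested genes passed, where 8.85% of all genes tested did. Plau, the urokinase gene, had 21.6, 21.9 and 24.3 FPKM with nattokinase, against 17.3, 17.6 and 19.0 FPKM in controls. All its nattokinase libraries lay above the controls, and it rose by 0.31 on the log2 scale (SE 0.058, limma adjusted p = 0.0088). Its ligand substrate Pdgfd was at 0. The tissue plasminogen activator gene Plat, known to cut the C chain, had a log2 fold change of -0.03 (adjusted p = 0.74). The convertase genes Furin, Pcsk5, Pcsk6 and Pcsk7 had log2 fold changes of -0.14 to -0.02, with adjusted p of at least 0.34. Plg and St14 stayed below the filter, and the median over the 6 genes was -0.06.

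Of 4 tested genes for PDGF-binding proteins and co-receptors, 1 rose and 0 fell, where 5.61% of all genes tested rose and 3.24% fell. Thbs1, which encodes the matrix glycoprotein thrombospondin-1, averaged 366 ± 38 FPKM with nattokinase and 155 ± 3.9 FPKM in controls (SD, n = 3 each), with a log2 fold change of 1.24 (limma adjusted p = 1.5e-05). Lrp1, an endocytic receptor that associates with the beta receptor, averaged 82.3 ± 7.9 FPKM with nattokinase and 94.7 ± 12.9 FPKM in controls (log2 fold change -0.20, adjusted p = 0.32). The co-receptor gene Nrp1 had a log2 fold change of 0.04. Sparc, which encodes a secreted protein that binds B chains, had -0.01, and its sign turned to 0.07 with quantile normalization and to 0.01 without nattokinase replicate 1. Cspg4 and A2m were below the filter, and A2m was listed at 0 FPKM in both groups.

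Genes for the proteins that relay receptor signals were expressed throughout, and few differed. All 36 genes of this list were tested, of which 2 rose and 0 fell, a share close to the 5.61% called higher over all genes. The median log2 fold change over the list was 0.05. The adaptor gene Crk averaged 46.6 ± 1.1 FPKM with nattokinase and 41.1 ± 2.2 FPKM in controls (SD, n = 3 each), with a log2 fold change of 0.18 (limma adjusted p = 0.055). Src, a kinase gene recruited by both receptors, averaged 21.8 ± 0.81 FPKM with nattokinase and 19.5 ± 0.28 FPKM in controls, with a log2 fold change of 0.15 (adjusted p = 0.075). The count that rose was 4 without control replicate 1, 1 without control replicate 2 or any single nattokinase replicate, and 5 with limma-voom. The count over all genes tested moved as well. It was 612 of 10913 as reported, 726 of 10821 without control replicate 1 and 872 of 10913 with limma-voom. Without control replicate 2 it was 362 of 10819, and without a nattokinase replicate it was 330 to 444.

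Of 8 tested genes for negative regulators of the receptors, 0 rose and 1 fell, with a median log2 fold change of 0.10. Of all genes tested, 5.61% were called higher and 3.24% lower. Ptprj encodes a receptor-type phosphatase that removes phosphate from the beta receptor. It had 6.27, 5.98 and 6.25 FPKM with nattokinase, against 8.13, 8.09 and 7.35 FPKM in controls. All its nattokinase libraries lay below the controls, and it fell by 0.30 on the log2 scale (SE 0.058, limma adjusted p = 0.010). Without nattokinase replicate 2 the adjusted p was 0.0502. The lipid phosphatase gene Inppl1 had a log2 fold change of 0.13 (adjusted p = 0.10), and the ubiquitin ligase gene Cblb had 0.16 (adjusted p = 0.27).

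Of the early genes that PDGF is known to induce in mouse fibroblasts, 9 of 15 tested rose and 0 fell, with a median log2 fold change of 0.36. Over all genes tested, 5.61% were called higher and 3.24% lower, with a median of 0.01. This list was chosen with earlier results of these data known. The 9 genes were Ccl2, Ccl7, Nr4a1, Egr1, Srf, Jun, Myc, Ier2 and Junb, and they respond to many stimuli besides PDGF. The chemokine genes Ccl7 and Ccl2 had log2 fold changes of 1.13 and 1.07 (limma adjusted p = 8.8e-06 and 7.8e-06). Egr1, a zinc finger factor gene, averaged 51.1 ± 2.0 FPKM with nattokinase and 34.8 ± 2.0 FPKM in controls (SD, n = 3 each), and the nuclear receptor gene Nr4a1 averaged 8.20 ± 0.15 FPKM with nattokinase and 4.69 ± 0.41 FPKM in controls. Fos, which belongs to the same early wave, had a log2 fold change of 0.25 (adjusted p = 0.080), and Ier3, Odc1 and Cxcl1 had 0.01, -0.04 and -0.07. Between 7 and 10 of these genes rose under the 15 other ways of processing.

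Of 7 tested genes for related growth factors and receptors, 1 rose and 0 fell, where 5.61% of all genes tested rose and 3.24% fell. The median log2 fold change over the list was 0.02. Flt1, a receptor gene for VEGF-A, VEGF-B and placental growth factor, averaged 4.84 ± 0.21 FPKM with nattokinase and 2.60 ± 0.23 FPKM in controls (SD, n = 3 each), with a log2 fold change of 0.70 (SE 0.069, limma adjusted p = 0.00033). The ligand genes Vegfa and Vegfd, structural relatives of the PDGF ligands, and the receptor gene Flt4 had log2 fold changes of 0.08, -0.07 and -0.06, each with an adjusted p of at least 0.33. Pdgfrl, a gene named for its likeness to the PDGF receptors, averaged 14.4 ± 1.0 FPKM with nattokinase and 14.1 ± 0.43 FPKM in controls (adjusted p = 0.86). Kit, Csf1r and Flt3, the closest kinase relatives of the PDGF receptors, stayed below the filter.

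**Figure D4:**
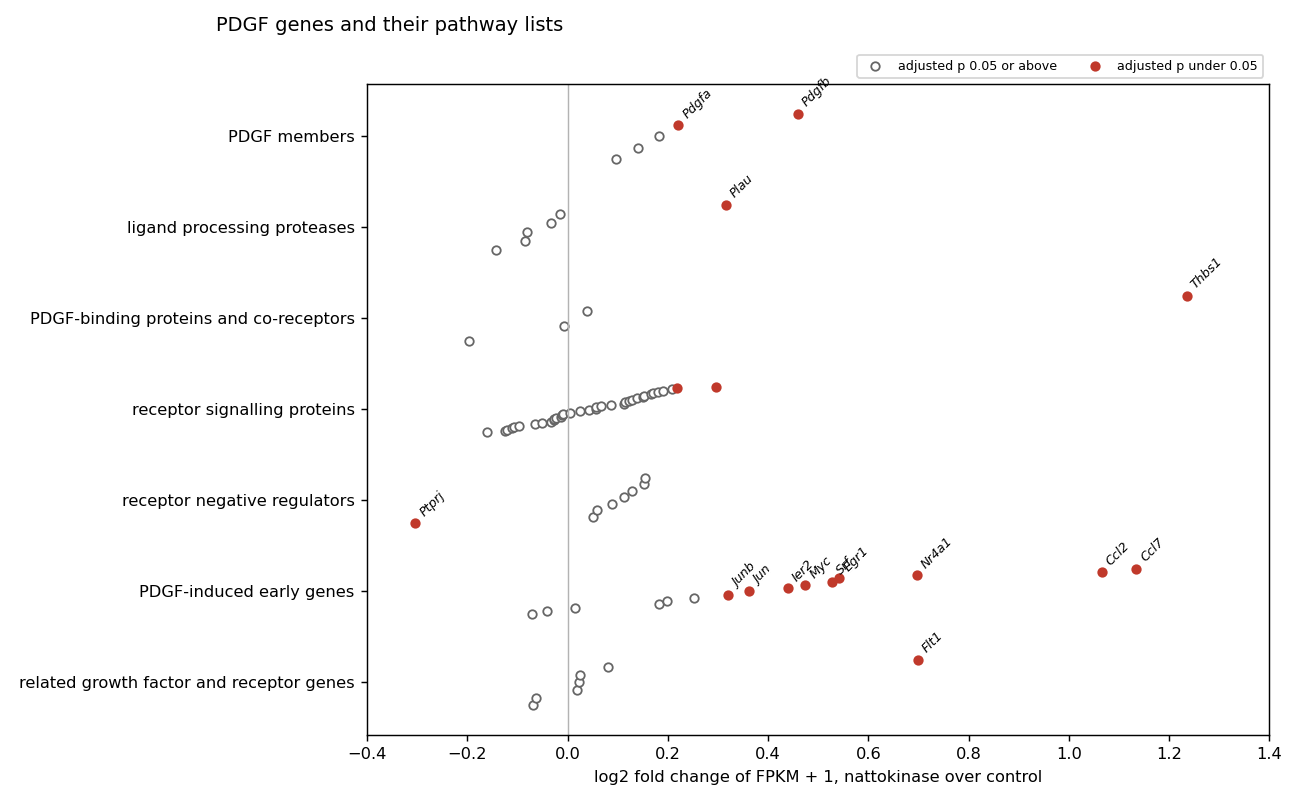
Log2 fold change, nattokinase over control, on the log2(FPKM + 1) scale for the tested genes of the PDGF family and of 6 pathway lists; points in a row are spread vertically in order of value, and filled points have an adjusted p under 0.05, with names outside the signalling list. The early genes hold 9 filled points of 15, the signalling proteins 2 of 36.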

How the data were processed

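RNA from 3 nattokinase and 3 control libraries was analysed, with groups and replicate numbers from the sample titles. The authors deposited FPKM for 55536 Ensembl genes per library. The unit was found from the values: multiplying FPKM by merged exon length (GENCODE M21, GRCm38) and dividing by a constant of the library gave whole numbers (tolerance 0.05) for 100% of the nonzero values, which recovers the reads assigned to genes. Per the submitters' processing notes, the software included HISAT2 2.1.0, Trimmomatic 0.38, DESeq2 1.22.1 and featureCounts 1.6.0, without role or order. Those notes name GRCh38, a human build, whereas all 55536 identifiers matched the mouse annotation. Use of strand is not stated.

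Values were tested as log2(FPKM + 1) with limma 3.58.1 in R 4.3.3 (group as the single term, intensity trend, robust prior, two-sided) for the 10913 genes that reached 1 FPKM in 3 or more libraries, with Benjamini-Hochberg adjustment at 0.05. This scale understates the change of low genes; a fold is a ratio of mean FPKM. In each pathway list, up to 4 tested genes with the smallest p are named, and any other list gene named was chosen after its values were seen, as were the promoter motifs. Some list genes are not reported here by name. The members and lists were chosen with earlier results of these data known. The code was tested on simulated libraries with 200 changed genes. Of 195 calls there, 17 were false, and 70% of the genes changed 1.25-fold were recovered. Folds below 1.25 were not simulated. Replicates were not duplicates: r across genes was 0.992 to 0.995 within groups, and the mean chi-square of same-group pairs was 2.56 to 12.2 per gene, where counting error alone gives about 1. Among the members, list genes and markers named, exons of other genes overlap in part those of Pdgfa, Pdgfc, Pdgfra, Thbs1, Inppl1, Jun, Junb, Furin, Pcsk6, Pcsk7, Nrp1, Plg, Csf1r, Tagln, Mcam, Notch3, Abcc9, Col3a1 and Itgam; the genes most alike were not checked for this, apart from those also in a list. Promoter sequences are from RefSeq (GRCm38.p6); entries were found for Pdgfa, Pdgfc, Pdgfd and Pdgfra. Alternatives were limma-voom on recovered reads, other scalings, pseudocounts and filters, a replicate block, and omission of each library in turn.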

Additional observations from a re-analysis of the deposited data

How the results depend on the processing

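Every one of the 16 settings put Pdgfb, Pdgfa, Pdgfrb, Pdgfra and Pdgfc above 0 on the log2 scale, and only Pdgfb passed in all of them (log2 fold change 0.42 to 0.51). Pdgfa lost its call, and the members called higher went to 1, with a filter at 0.1 FPKM (0.22), without a filter (0.22), with the replicate block (0.22), with median-of-ratios scaling (0.21), with quantile normalization (0.20) and with protein-coding totals (0.19), and with each library left out (0.18 to 0.25). Pdgfrb passed with limma-voom (0.19). Without a filter on low values 24549 genes entered the adjustment, and 0 proteases rose, 0 signalling genes rose and 0 negative regulators fell. The signalling genes called higher were 5 with limma-voom, 1 with the replicate block and 1 to 4 with a library left out, and the negative regulators called lower 0 to 1. Over all genes 612 were called higher and 354 lower, and with limma-voom 872 and 462. Without a filter these were 221 and 109, and with a library left out 330 to 726 and 193 to 481, the fewest without nattokinase replicate 2 and without control replicate 2. Of the calls 63.4% were higher, and 49.0% (478 higher, 497 lower) with protein-coding totals, though scaling moved the median of all genes by under 0.1. Same-numbered libraries did not deviate together (r of -0.089, -0.044 and -0.059), which gives no sign of pairing by number but cannot exclude it. With the block 439 genes were called higher and 249 lower. Sparc changed sign to 0.068 with quantile normalization, and ran from -0.026 to 0.006 with a library left out, above 0 without nattokinase replicate 1. The causes were not tested. Depth limits Pdgfd, which had 0 reads.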
